A study of Homo sapiens with 6 samples.

Results

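The genes of the proteasome were followed in maps of open chromatin from wild-type hTERT-RPE1 cells, a human retinal pigment epithelium line immortalised by the catalytic subunit of telomerase. Members were the protein-coding genes on chromosomes 1 to 22 and X whose symbols run from PSMA to PSMG and end in a number, which gave 48 of 19974 genes on 17 chromosomes. They were sorted by textbook role into 31 constitutive subunits, 4 immune or thymus subunits, 1 testis subunit, 5 activators and inhibitors, and 7 assembly chaperones. The rule goes by symbol and uses no accessibility value. The assay was ATAC-seq, which cuts and tags DNA free of nucleosomes with the transposase Tn5. By their titles the 6 libraries formed 2 sets of 3, R1 and R2, all from the same line and genotype with no treatment named, and the labels do not say what sets R1 apart from R2. Each set was deposited as 1 merged peak list, so a value below belongs to a pooled list and has no replicate error. Coordinates are on hg38.

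The proteasome degrades proteins that carry ubiquitin. Its 20S core is a barrel of alpha and beta rings, and the catalytic sites lie in PSMB5 (chymotrypsin-like), PSMB6 (caspase-like) and PSMB7 (trypsin-like). The 19S cap recognises ubiquitin and unfolds the substrate with a ring of ATPases, PSMC1 to PSMC6. Interferon induces PSMB8, PSMB9 and PSMB10, which replace PSMB5, PSMB6 and PSMB7 in the immunoproteasome and change the peptides offered to class I MHC molecules. PSMB11 takes the place of PSMB5 in cortical thymic epithelium, and PSMA8 takes the place of PSMA7 in the male germ line. When the proteasome is impaired, the factor NFE2L1 is known to raise the constitutive genes together through antioxidant response elements.

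The results turn on whether the start of a gene lies in open chromatin, so the promoters of the exchangeable subunits are shown first. The 250 bases before the outermost annotated start come from RefSeq, GRCh38.p14, and read 5′ to 3′ on the strand of the gene. Capitals mark matches, on either strand, to the antioxidant response element core TGACNNNGC, the NF-Y box CCAAT, the ETS motif CCGGAAG, the interferon-stimulated response element core (GAAA and GAAA parted by 2 bases), the gamma-activated site TTCNNNGAA and the TATA box TATAAA. Negative positions count back from the start. PSMB8 (chr6:32844680-32844929, minus strand), PSMB9 (chr6:32853942-32854191, plus strand) and PSMB10 (chr16:67936851-67937100, minus strand) are the interferon-inducible catalytic subunits, and all 3 had a region over the start.
PSMB8: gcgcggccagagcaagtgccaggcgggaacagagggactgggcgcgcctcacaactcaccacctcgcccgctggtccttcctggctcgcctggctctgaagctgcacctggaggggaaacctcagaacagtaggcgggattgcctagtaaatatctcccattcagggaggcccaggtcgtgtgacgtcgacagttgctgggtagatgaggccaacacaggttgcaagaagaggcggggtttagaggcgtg
PSMB9: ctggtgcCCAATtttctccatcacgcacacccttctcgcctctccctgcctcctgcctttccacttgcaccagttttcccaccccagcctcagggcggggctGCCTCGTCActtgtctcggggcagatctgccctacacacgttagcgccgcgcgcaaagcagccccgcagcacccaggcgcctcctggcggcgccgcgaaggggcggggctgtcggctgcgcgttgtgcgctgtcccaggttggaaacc
PSMB10: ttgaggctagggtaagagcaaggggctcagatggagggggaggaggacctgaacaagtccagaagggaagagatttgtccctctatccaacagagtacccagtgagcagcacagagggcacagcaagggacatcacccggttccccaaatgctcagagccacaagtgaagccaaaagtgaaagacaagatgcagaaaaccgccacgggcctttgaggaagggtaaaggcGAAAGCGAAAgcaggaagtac
PSMB8 held none of the marked motifs in this stretch. PSMB9 held an antioxidant core on the minus strand at -148 to -140 and a CCAAT box at -243 to -239, and PSMB10 held an interferon core at -21 to -12.

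The members whose starts had no region in either list are PSMB5 (chr14:23035221-23035470, minus strand), PSMB11 (chr14:23041962-23042211, plus strand) and PSMA8 (chr18:26133619-26133868, plus strand).
PSMB5: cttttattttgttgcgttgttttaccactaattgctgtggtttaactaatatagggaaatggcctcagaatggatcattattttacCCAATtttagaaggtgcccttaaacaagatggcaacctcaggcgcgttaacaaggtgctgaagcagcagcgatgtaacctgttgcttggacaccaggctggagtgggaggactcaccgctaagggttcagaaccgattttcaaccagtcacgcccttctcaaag
PSMB11: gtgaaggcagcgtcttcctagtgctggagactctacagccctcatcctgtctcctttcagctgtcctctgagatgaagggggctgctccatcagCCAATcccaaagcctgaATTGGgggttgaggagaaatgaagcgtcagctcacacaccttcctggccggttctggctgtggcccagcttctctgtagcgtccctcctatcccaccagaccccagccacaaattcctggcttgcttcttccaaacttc
PSMA8: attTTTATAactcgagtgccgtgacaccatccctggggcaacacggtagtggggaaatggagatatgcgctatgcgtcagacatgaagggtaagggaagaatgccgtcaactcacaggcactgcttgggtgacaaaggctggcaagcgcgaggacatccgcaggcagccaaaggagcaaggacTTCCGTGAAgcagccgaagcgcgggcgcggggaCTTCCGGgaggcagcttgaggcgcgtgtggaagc
PSMB5 held a CCAAT box at -164 to -160. PSMB11 held CCAAT boxes on opposite strands at -156 to -152 and -139 to -135. PSMA8 held a gamma-activated site at -67 to -59, an ETS motif on the minus strand at -34 to -28 and TATAAA on the minus strand at -247 to -242.

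For comparison, PSMD12 (chr17:67366578-67366827, minus strand), a scaffold of the 19S lid, had the strongest start region of the constitutive subunits by its rank in both lists together. PSME2 (chr14:24146611-24146860, minus strand) encodes a subunit of the interferon-inducible PA28 activator. Both were added to the display after their values were seen.
PSMD12: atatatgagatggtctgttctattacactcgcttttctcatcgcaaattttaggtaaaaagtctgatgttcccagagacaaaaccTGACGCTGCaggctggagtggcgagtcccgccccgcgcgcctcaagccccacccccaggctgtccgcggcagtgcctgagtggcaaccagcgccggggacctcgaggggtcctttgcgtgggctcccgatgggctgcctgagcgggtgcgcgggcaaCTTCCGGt
PSME2: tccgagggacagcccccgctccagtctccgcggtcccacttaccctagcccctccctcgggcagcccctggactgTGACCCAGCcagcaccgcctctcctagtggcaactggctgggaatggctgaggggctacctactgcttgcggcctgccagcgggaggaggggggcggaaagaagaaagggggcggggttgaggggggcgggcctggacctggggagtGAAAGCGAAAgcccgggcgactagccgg
PSMD12 held an antioxidant core at -165 to -157 and an ETS motif on the minus strand at -8 to -2. PSME2 held an antioxidant core at -175 to -167 and an interferon core at -28 to -19, with the same 10 letters as in PSMB10. No marked matches of different motifs overlapped in the 8 stretches. A match is a run of letters and does not show that a factor binds there.

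Most proteasome genes had open chromatin at an end of the gene. A region was counted when a peak touched a window reaching 1000 bp to each side of an end of the gene, and 43 of 48 members had one by R1, 43 by R2 and 43 by both (89.6%). Over all protein-coding genes the shares were 75.5%, 75.0% and 73.9%. Of the 5 members without one, PSMA6 and PSMG4 had a region at an annotated start inside the interval of the gene. PSMA8, PSMB5 and PSMB11 had none at an end or at a start. With windows of 5000 bp, 44 members had one by R1, 45 by R2 and 44 by both, beside 85.8%, 85.3% and 84.7% of all protein-coding genes, so the share of members (91.7%) came closer to the background.

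Counting by annotated starts gave much the same picture. RefSeq gave 51 starts for 42 members, and 39 of the 42 had a region within 1000 bp of a start in both lists, or 92.9%, beside 75.7% of 15812 genes in R1, 75.3% in R2 and 74.3% in both. PSMA7, PSMB1, PSMB6, PSMB7, PSMD4 and PSMG3 had no entry and are described by gene ends. By class, 25 of 26 constitutive genes, 3 of 4 immune or thymus genes, 0 of 1 testis genes, 5 of 5 activators and inhibitors and 6 of 6 chaperones had a start region in both lists. All 6 genes of the 19S ATPase ring and all 10 of the 19S subunits without ATPase activity with an entry were among them. The ribosomal protein genes gave 57 of 58 for the cytosolic and 69 of 69 for the mitochondrial ribosome. No test was made between these families and the proteasome, and with classes of 1 to 5 genes the shares of the immune and testis subunits rest on single genes.

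**Figure D1:**
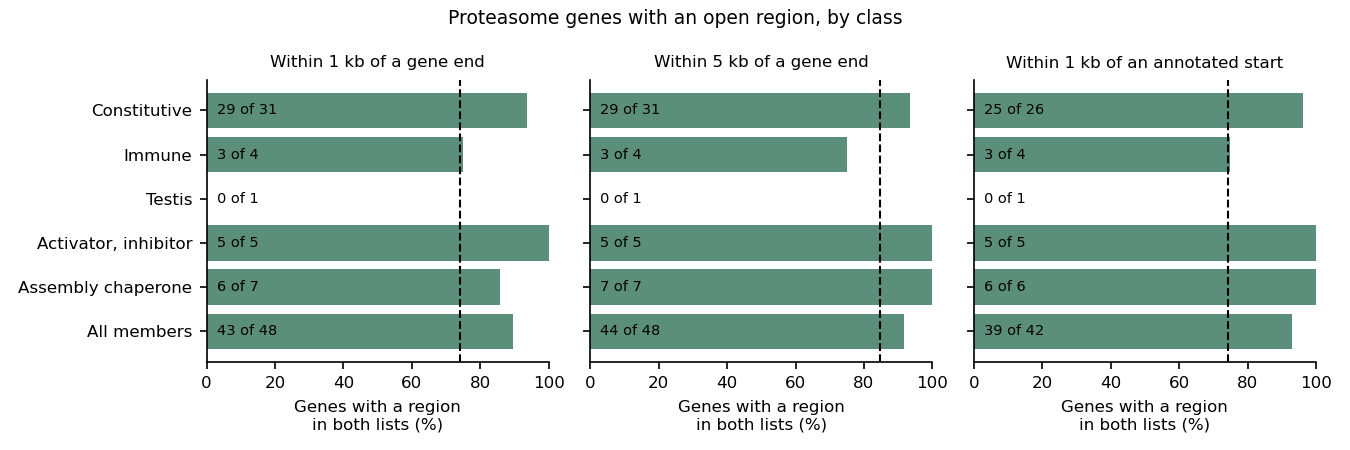
Share of proteasome genes with a region in both lists, by class, within 1000 bp (1 kb) or 5000 bp (5 kb) of a gene end and within 1000 bp of an annotated start. Bars give the percentage and the text in each gives the count, and the dashed line is the share of all protein-coding genes. The constitutive, activator and chaperone classes lie above the line in every panel, while the immune class (3 of 4) lies near it or below it and the testis gene at 0.

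Strength was read as fold enrichment over background, the authors' value for each peak, and turned into the percentile of that value among all peaks of its own list. For genes with more than 1 region, the region with the highest fold was taken. The 39 members with a start region had a median percentile of 78.9 in R1 and 81.7 in R2, and all genes with one had 71.7 and 72.7. The 25 constitutive genes had 85.8 and 83.9. Most members thus lay in the stronger part of both lists. Requiring at least the median fold of the list left 37 of 42 members by starts, beside 58.9% of all genes, and 40 of 48 by gene ends, beside 57.3%. The members lost at this step were PSMB3 and PSME4 by either rule and PSMA7 by gene ends. The height of the stack over the summit, the pileup, was worked out from fold and p-value. The peak caller is not given, so the stacked unit may be fragments, reads or cut sites. It is called fragments throughout. The median pileup over the 39 start regions was 391 fragments in R1 and 382 in R2, beside 302 and 316 for all genes and 72 for all peaks of either list.

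**Figure D2:**
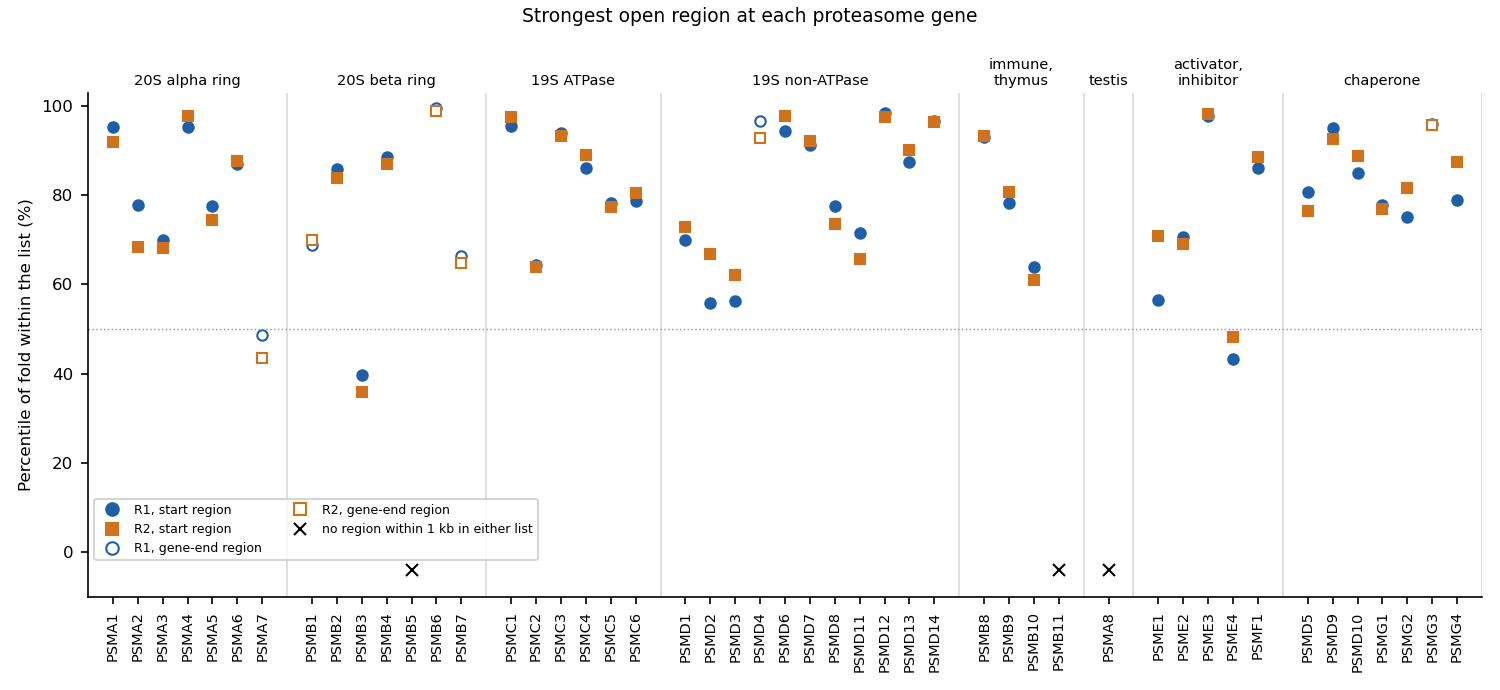
Percentile of fold within its own list (vertical axis, %) for the strongest region of each proteasome gene (horizontal axis, grouped by role), with circles for R1 and squares for R2. Filled symbols are start regions, open symbols are gene-end regions of genes with no start entry, and crosses are the genes with no region within 1000 bp of an end or a start. Most members lie above the dotted line at 50, and PSMB3, PSME4 and PSMA7 lie below it in both lists.

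The alpha ring of the core, whose subunits gate the entry to the barrel, ran from weak to strong. PSMA4 had a fold of 11.70 (R1) and 12.35 (R2), at percentiles of 95.4 and 97.7. PSMA1 had a start region of fold 11.70 (R1) and 10.47 (R2), well inside its interval. At the outer end of PSMA1 another region, shared with the end of PDE3B, had a fold of 6.76 and 8.64, so a rule by gene ends reads a different element for this gene. PSMA2, PSMA3 and PSMA5 were intermediate, with percentiles of 68.2 to 77.7 over both lists.

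PSMA6 was missed at its gene ends but not at its starts. Its region at chr14:35291779-35293202 in R1 had a fold of 9.71 and that in R2 had 9.65, at percentiles of 86.9 and 87.6. PSMA7, the alpha subunit that PSMA8 replaces in the testis, was the only member whose strongest gene-end regions did not overlap between lists. In R1 the highest fold, 4.89, lay at chr20:62136604-62137279, and in R2 the highest, 4.53, lay at chr20:62143153-62143919 at the other end. Both lists had regions at both ends of PSMA7, with 4 regions each and folds of 3.92 to 4.89 in R1 and 3.31 to 4.53 in R2, so its percentiles (48.6 and 43.4) describe several regions of like strength. The R2 region also held an end of SS18L1.

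The beta ring held the extremes of the whole set. PSMB6, the caspase-like subunit, had the highest percentile of all members, with folds of 14.45 (R1) and 13.26 (R2) at percentiles of 99.5 and 98.9 and a pileup of 357 and 301 fragments. Its region spanned chr17:4795781-4796818 in R1 and its summit lay 42 bp from the nearer end of the gene. PSMB7, the trypsin-like subunit, was ordinary by the same measure, at chr9:124414840-124415791 with folds of 6.79 (R1) and 6.63 (R2) and percentiles of 66.3 and 64.9. PSMB5, the third catalytic subunit, had no region at all within 1000 bp in either list. The catalytic subunits of the same complex thus lay at the top and in the upper middle of the lists, with no region listed for PSMB5.

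PSMB3, a structural beta subunit, shows how fold and pileup can part. Its fold was the lowest of all members, 4.11 (R1) and 3.91 (R2), at percentiles of 39.6 and 35.8. Its pileup was among the higher ones, 465 and 432 fragments, at percentiles of 99.0 and 98.4. The local background worked out for this region, 112 and 110 fragments, was the highest of the start regions of the members, whose medians were 42.3 and 41.6. PSMB3 is therefore weak by enrichment and strong by pileup. PSMB2 and PSMB4 had folds of 9.04 to 9.99 and PSMB1, whose region also held an end of TBP, had 7.11 and 7.24.

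Every gene of the 19S cap had a region. All 6 ATPase genes had regions, from PSMC2 with folds of 6.57 (R1) and 6.52 (R2) to PSMC1 with 11.76 and 12.30. PSMC1 had this high fold with a pileup of only 249 and 261 fragments, over a background of 20.3 in both lists. PSMC3 reached 11.21 and 10.79 with 468 and 465 fragments. All 11 genes of the cap without ATPase activity also had regions at a gene end by R1 and by R2, beside 75.5% and 75.0% of all genes.

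Among those, the strongest by rank in both lists together was PSMD12, at chr17:67365411-67366983 in R1, with folds of 13.27 (R1) and 12.28 (R2) and percentiles of 98.5 and 97.5. PSMD14, the deubiquitinase that removes the ubiquitin chain, had 12.18 and 11.82. PSMD4, a ubiquitin receptor, had 12.15 and 10.69 at a gene end. PSMD2 and PSMD3 were at the low end, with percentiles of 55.9 and 56.3 in R1 and 66.9 and 62.1 in R2.

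The 3 interferon-inducible catalytic genes had regions in these cells, for which the labels give no interferon treatment. Most genes had one, 73.9% of all protein-coding genes at a gene end in both lists and 74.3% at a start. PSMB8 had a region at chr6:32843594-32845008 in R1 and chr6:32843568-32845015 in R2, with a fold of 10.98 and 10.79, percentiles of 93.0 and 93.3 and a pileup of 434 and 417 fragments. The summit lay 114 bp downstream of the outer start in both lists. PSMB9 had its region at chr6:32852594-32854818 in R1, with a fold of 8.34 and 8.59, percentiles of 78.3 and 80.7 and a pileup of 513 and 511 fragments. The same region also held an end of TAP1, which encodes a chain of the transporter that carries proteasome peptides to class I MHC molecules. PSMB10 had folds of 6.50 and 6.21, percentiles of 64.0 and 61.0 and a pileup of 460 and 420 fragments.

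Paired with the subunits they replace, the order was not the same in each pair. PSMB9 ranked below PSMB6 (78.3 against 99.5 in R1 and 80.7 against 98.9 in R2). PSMB10 and PSMB7 lay close together (64.0 against 66.3 in R1 and 61.0 against 64.9 in R2). PSMB8 had a strong region, and no region was listed for PSMB5. By pileup, the height of the stack at the summit, the immune subunit of both measured pairs stood higher. PSMB9 had 513 (R1) and 511 (R2) fragments against 357 and 301 for PSMB6. PSMB10 had 460 and 420 against 341 and 318 for PSMB7. The order within a pair therefore depended on whether peaks were ranked by fold or by pileup. The local background was also higher for PSMB9 (60.6 in R1 and 58.6 in R2) than for PSMB6 (23.8 and 21.8). It was 70.0 and 66.7 for PSMB10 and 49.4 and 47.1 for PSMB7. The region of PSMB9 also held an end of TAP1, so its values cannot be assigned to PSMB9 alone. There is 1 pooled list per set, so none of these differences has an error.

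The region of PSMB10 covered most of the gene. It spanned chr16:67934886-67937299 in R1 and chr16:67935000-67937189 in R2, 2414 and 2190 bp wide, over a gene of 2345 bp. Its summit lay 861 bp downstream of the start in R1 and 862 bp in R2, the farthest from a start of the 39 members. PSMB10 also had the lowest ratio of observed to expected CpG at its promoter (0.329) of the immune genes with a region.

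**Figure D3:**
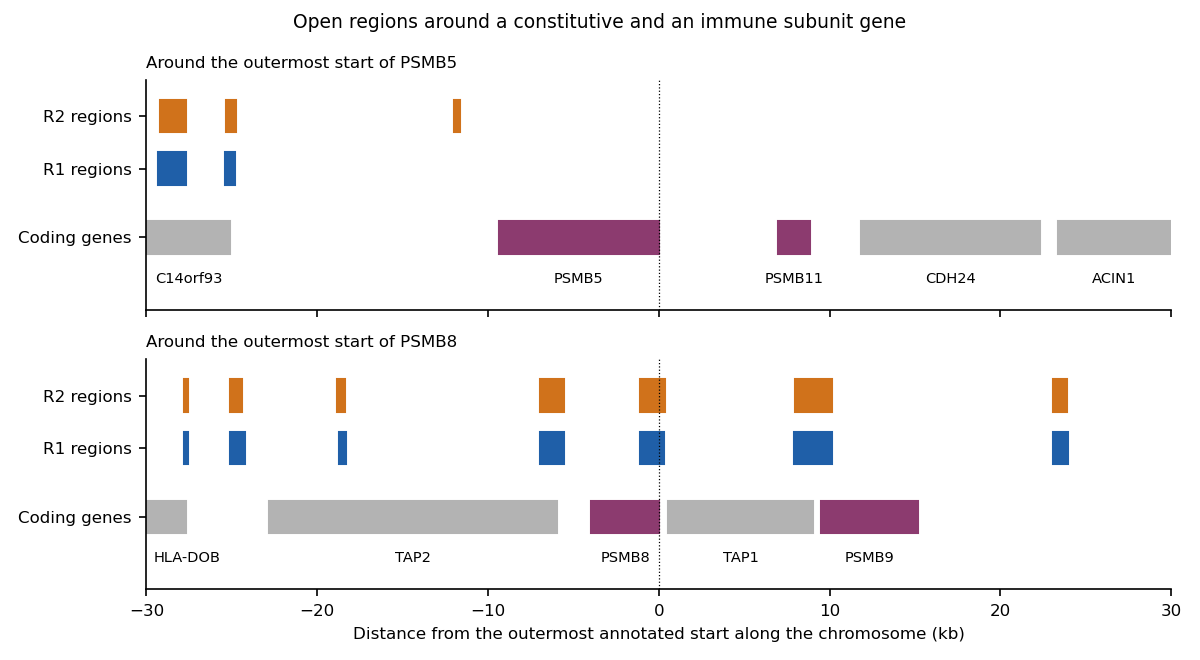
Regions of R1 and R2 and protein-coding genes within 30 kb of the outermost annotated starts of PSMB5 and PSMB8, by distance along the chromosome (kb). Proteasome genes are purple. Around PSMB8, regions lie over the starts of PSMB8 and PSMB9 in both lists, while around PSMB5 the nearest region of R1 ends 15415 bp from the gene and that of R2 ends 2260 bp from it.

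PSMB5 and its thymus counterpart PSMB11 are neighbours and lay in the same stretch without regions. In R1 the stretch ran for 98721 bp on chromosome 14, from 23010436 to 23109158, and in R2 for 85566 bp, from 23023591. The only region within 5000 bp of PSMB5, at chr14:23023237-23023591 in R2, was weak, with a fold of 2.62 at a percentile of 12.8. Stretches at least as long made up 2.18% of those between neighbouring regions in R1 and 2.93% in R2, so its length is not rare. It held 6 whole coding genes, PSMB5, PSMB11, CDH24, ACIN1, C14orf119 and CIROP. Of stretches of any length, 44 of 142842 in R1 (0.0308%) and 47 of 134328 in R2 (0.035%) held 6 or more. These shares count short stretches too, so they do not show how unusual 6 genes are among stretches this long. The stretch was also looked at because PSMB5 and PSMB11 lacked a region. Peak names were numbered on without a break across the stretch in both lists. The lists hold called peaks only, so signal under the authors' threshold, which is not given in the sources used here, would not appear in them. Whether reads of this stretch were lost before peaks were called cannot be seen from the lists and was not tested, so the missing entries of PSMB5 and PSMB11 are not a measure of closed chromatin.

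PSMA8, the testis alpha subunit, was the only coding gene between flanking regions 134565 bp apart in R1 and 134596 bp apart in R2. R1 had no region in the gene. R2 had 1, at chr18:26170940-26171184, far inside the gene at 37291 bp past its start, with a fold of 3.41 at a percentile of 28.4 and a pileup of 29 fragments. Of 4 germ cell markers, 3 (DDX4, DAZL and MAEL but not SYCP3) had a region at a gene end by both lists, and MAEL alone had one at a start. For the thymus, FOXN1 had a weak region at a gene end, at percentiles of 6.07 and 14.5, and PSMB11 had none. FOXN1 also had a region at a start in both lists, and PSMB11 did not. Of 8 markers of the retinal pigment epithelium, 5 had a region at a gene end by both lists (RPE65, LRAT and TYR had not). So did 2 of 4 blood cell markers. At starts, 4 of the 6 retinal markers with an entry had one in both lists, LRAT among them. The 1 blood cell marker with an entry, PTPRC, had none at a start. Over all genes the share was 73.9% at gene ends and 74.3% at starts. No expression was measured.

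The activators and the inhibitor all had regions, beside 73.9% of all genes at gene ends and 74.3% at starts, but spread widely in strength. PSME3, the nuclear PA28 activator, was among the 3 highest members, at chr17:42832707-42834029 in R1, with folds of 12.77 (R1) and 12.72 (R2) and percentiles of 97.8 and 98.3. PSME1 and PSME2, whose products form the interferon-inducible PA28, had folds of 5.70 and 7.32 in R1 and 7.33 and 7.13 in R2. The 2 genes lie close together on chromosome 14, each with a region of its own, and that of PSME2 also held an end of RNF31. PSME4, the PA200 activator, had the widest of the members' strongest regions at a gene end, 2885 and 2865 bp, shared with an end of ACYP2, and a low fold of 4.39 and 4.91 at percentiles of 43.3 and 48.1. PSMF1, a proteasome inhibitor, had a start region of fold 9.57 and 9.81 inside its interval and a weaker one near its 3′ end, with a fold of 5.71 and 6.14 and a pileup of only 50 and 53 fragments.

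The assembly chaperones had the narrowest spread of the classes with more than 3 start regions, and all lay above a percentile of 75 in both lists. PSMD9, which helps to build the 19S base, had the highest pileup of all members in R1, 592 fragments, and 504 in R2, with a fold of 11.57 and 10.59. PSMG3, part of a chaperone pair for the alpha ring, had a gene-end region of fold 11.92 and 11.53. PSMG4, its partner, had its start region at chr6:3258493-3259999 in R1, inside the interval, with folds of 8.40 (R1) and 9.61 (R2). PSMG2 had its highest fold, 9.18 and 8.41, past the end of its interval, and a start region of 7.91 and 8.72.

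Both lists placed these regions at the same sites. For 42 of the 43 members with a region at a gene end by both lists, the strongest regions overlapped, by at least 93.9% of the shorter. The median distance between their summits was 24 bp and the largest was 475 bp, at PSMA5. All 39 start regions overlapped between lists and all 39 covered an annotated start in each list, beside 85.5% and 90.1% of all genes with a start region in both. Overlap was just as general among other genes. When overlap between lists was also required, 14656 of the 14751 protein-coding genes counted at gene ends remained, and all 43 members. At starts, 11674 of 11742 genes remained, and all 39 members. The overlap therefore does not set the members apart. The summit, the point of the highest pileup, was within 300 bp of a start in 33 of 39 members in each list, beside 69.1% and 71.6% of all genes. The median distance from summit to start was 140 bp (R1) and 158 bp (R2), beside 186 and 177 bp. Summits of the members fell on both sides of the start in each list. The sets come from 1 cell line and their libraries may share cultures, so this measures how repeatable the lists are and no more.

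**Figure D4:**
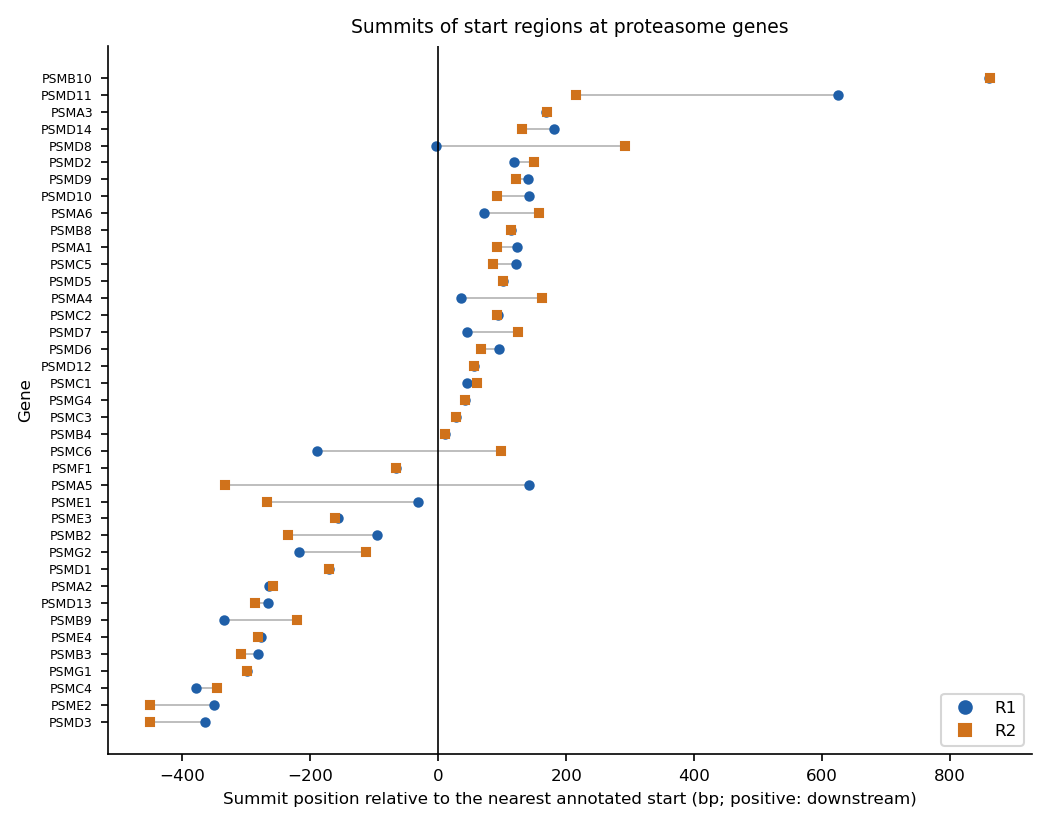
Position of the summit of the start region relative to the nearest annotated start (horizontal axis, bp, positive downstream) for the 39 proteasome genes with one in both lists (vertical axis), with circles for R1 and squares for R2 and a grey line joining them. Most summits lie within 300 bp of the start, PSMB10 lies farthest at 861 and 862 bp, and PSMD11 (625 and 215 bp) and PSMA5 (142 and -333 bp) differ most between the lists.

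Several proteasome regions also lay at an end of a neighbour, about as often as for other genes. The strongest gene-end region held an end of another coding gene in 11 of the 43 members in R1 and 12 in R2, beside 22.7% and 23.7% of all genes. The partners were PDE3B (PSMA1), MRPL32 (PSMA2), TBP (PSMB1), TAP1 (PSMB9), PMPCB (PSMC2), FTSJ3 (PSMC5), HPD (PSMD9), SIRT3 (PSMD13), RNF31 (PSME2), ACYP2 (PSME4) and BRWD1 (PSMG1), and SS18L1 (PSMA7) in R2. The value of such a region cannot be assigned to 1 of its genes. The number of regions within 5000 bp was a median of 2 for members and for all genes in both lists.

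In median base composition the promoters were close to those of all genes, but a smaller share of them was poor in CpG. Over 300 bases, from 250 before to 50 after each of the 51 starts, the members had a median GC content of 62.0% and a median ratio of observed to expected CpG of 0.769, beside 62.3% and 0.738 for 22132 promoters of all genes. The lower quartile of the ratio was 0.66 for members and 0.352 for all promoters, while the upper quartiles were 0.89 and 0.901. The 5 promoters of the immune and thymus genes had a median ratio of 0.598. PSMB11 was the lowest member at 0.169, with 8.61% of genes lower. PSMB5 had 0.693 at its richer start and PSMA8 had 0.922. Among genes with a ratio at least as high as that of PSMB5, 7.87% of 10039 did not have a start region in both lists, and the figure was 5.71% of 4341 at the level of PSMA8 and 20.3% of 14450 at that of PSMB11. PSMB5 and PSMA8 thus belong to the smaller part of genes of such composition, those without a start region in both lists. For PSMB5, whether reads of its stretch were lost before peaks were called was not tested.

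**Figure D5:**
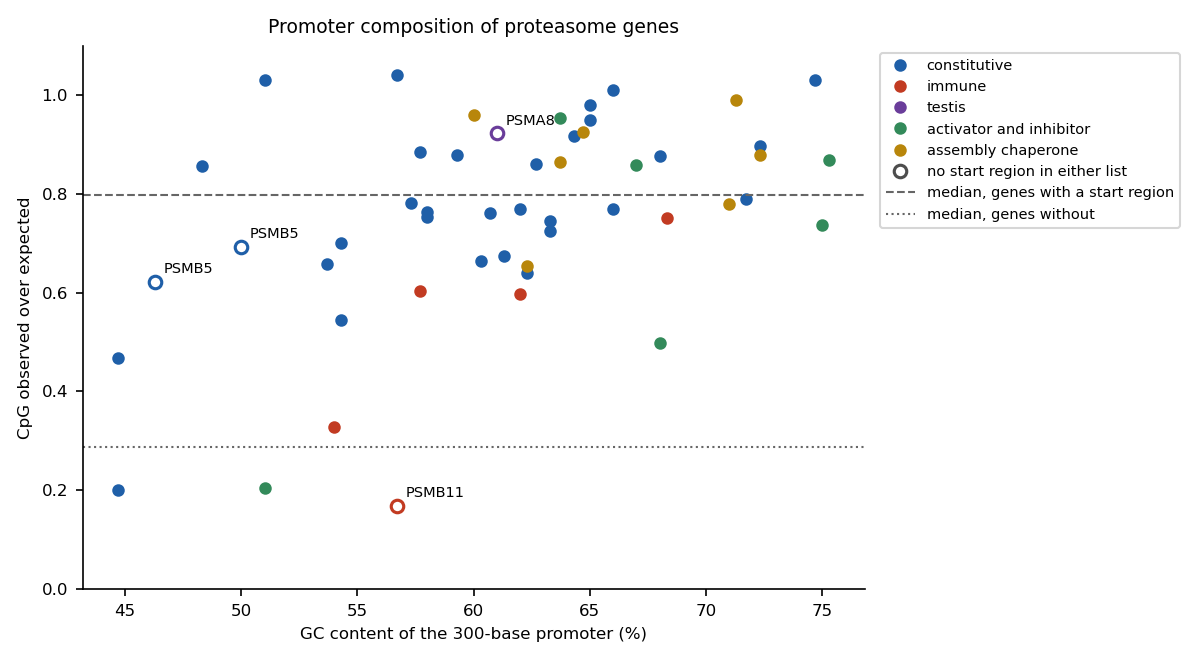
GC content (horizontal axis, %) and ratio of observed to expected CpG (vertical axis) of the 300-base promoters of proteasome genes, 1 point per annotated start, coloured by class. Open points mark genes with no start region in either list, and the lines give the medians over all promoters of genes with a start region in both lists (0.797) and of the remaining genes (0.287). PSMA8 and PSMB5 lie well above the lower line and PSMB11 lies below it.

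Motifs were counted as letters in the same 300 bases on both strands, with overlaps between motifs allowed. The antioxidant core TGACNNNGC stood in 15 of the 51 member promoters (29.4%) and in 13.8% of all promoters. It was found at PSMA4, PSMB3, PSMB9, PSMC4, PSMC5, PSMD1, PSMD3, PSMD5, PSMD9, PSMD12, PSME1, PSME2, PSME4, PSMG1 and PSMG2. The share was uneven between classes. The core stood in 7 of 32 promoters of constitutive subunits (21.9%) and 4 of 7 of assembly chaperones (57.1%). It also stood in 3 of 6 promoters of activators and inhibitors and 1 of 5 of immune or thymus subunits. In the 250 bases before the start alone, 5 of 32 promoters of constitutive subunits held it (15.6%), beside 11.2% of all promoters. The ETS letters CCGGAAG stood in 15 (29.4%) and in 12.8% of all promoters, and in none of the immune or thymus genes. The interferon core stood in 7 (13.7%) and in 3.17% of all promoters, at PSMB8 (its inner start), PSMB10, PSME1 and PSME2 of the interferon-inducible genes and at PSMA4, PSMB4 and PSMG4. The gamma-activated site TTCNNNGAA stood in 8 (15.7%) and in 6.79% of all promoters.

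The remaining motifs lay nearer to the background. CCAAT stood in 20 of 51 (39.2%) beside 34.6%, and the SP/KLF box GGGCGG in 35 (68.6%) beside 56.3%. The YY1 letters ATGGCG stood in 9 (17.6%) beside 13.1%, all 9 at constitutive genes, and TATAAA in 5 (9.8%) beside 9.46%. Some starts of the same gene lie close together, so the 51 promoters are not independent. These shares are descriptions with no test, and no factor binding was measured.

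The wider pathway had regions as well. All 37 genes of the lists around the proteasome had one at a gene end by both lists, beside 73.9% of all genes. They were 2 subunits named outside the PSM symbols, 11 bound enzymes and receptors, 4 assembly and import factors, 7 regulators and 13 genes of antigen processing and interferon response. SEM1, a small 19S subunit, had folds of 15.63 (R1) and 15.23 (R2), above every member. NGLY1, the glycanase that processes NFE2L1, had 14.40 and 13.44. NFE2L1 itself had folds of 5.49 and 5.11, near the median of the lists, but a pileup of 507 and 469 fragments. MAFK, a partner of NFE2L1 and NFE2L2 on DNA, had the lowest folds of the 37, 1.91 and 2.09, with 126 and 128 fragments. The median over all peaks was 72 fragments in either list. TAP1 had its highest fold at the region of PSMB8, which lies within 1000 bp of its other end. Its 2 gene-end regions were those of PSMB8 and PSMB9, so TAP1 adds no region of its own to the count of 37. TAP2, on the other side of PSMB8, had a region with folds of 11.61 and 10.91.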

How the data were processed

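For each set of 3 libraries the authors deposited 1 merged list of peaks, in hg38 coordinates as the submitters' processing notes say. Not given in the sources used here were aligner, peak caller, thresholds and any shift of reads for Tn5. Each peak carries the authors' fold enrichment (a ratio), deposited −log10 p and −log10 q values, a deposited score that follows −log10 q, and the deposited offset of the summit. R1 held 143492 peaks, 142865 on chromosomes 1 to 22 and X, and R2 held 134940 and 134351. The median fold was 5.04 and 5.12.

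Members came from the RefSeq gene table (GRCh38.p14) by symbol, and starts, strand and promoter sequence from its promoter table. The members and all lists were chosen with earlier results of these data known. A peak counted when it overlapped a window by at least 1 bp. Percentiles are within a list, and no strength is compared between lists as a change. The pileup and background were solved from fold and p, as pileup plus 1 over background plus 1 and a Poisson tail; 100% of peaks matched within 0.001. The relation is inferred from the values, and it is the only depth known: the lowest background was 7.93 and 7.79 fragments, which limits precision for counting error only.

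With 1 pooled list per set no test was possible, so counts, medians and each list's values are given beside those of all genes. Full values were planned for the immune, thymus and testis members and their counterparts, members without a region, and the 3 highest and 3 lowest mean percentiles; others are named after their values were seen. Alternatives covered q thresholds, fold, list, overlap, summit, window and rank. Scripts were tested on simulated data, with 0 errors in 1500 overlaps, 19999 peaks and 48 motifs. The work used scipy 1.17.1, pandas 2.3.3 and numpy 2.4.6 under Python 3.11.15, with matplotlib 3.10.9 for figures.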

Additional observations from a re-analysis of the deposited data

How the results depend on the processing

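Each of the 88 counts recomputed under an alternative (stricter −log10 q, upper fold, 1 list or either, summit in the window, overlap between lists, windows of 500 and 2000 bp) stayed within 1.5 times the reported one. Of these, 10 concern the testis gene, at 0 under every setting, and counts near their class size could not have risen by 1.5 times, so the tally says little of stability. For all members at gene ends the count was 43 and ranged from 40 to 43. It was 40 with the upper fold, beside 57.3% of all genes. Under every other setting it was 43, while the share of all genes ran from 68.2% (summit in the window) to 78.5% (window of 2000 bp). The distance from the background therefore changed with the setting though the count hardly did. The median percentile at gene ends, 78.3 in R1 and 79.3 in R2 by fold, was 96.4 and 95.4 when peaks were ranked by −log10 q and 96.8 and 96.4 when ranked by pileup, and in R2 it was 77.3 with a window of 500 bp and 77.3 with the region whose summit lay nearest a gene end. All genes moved likewise, from 70.9 and 71.7 to 89.3 and 90.9 by −log10 q and 91.6 and 92.5 by pileup. Over all promoters, the 250 bases before the start alone gave 11.2% for the antioxidant core, 32.7% for CCAAT, 10.7% for ETS, 53.7% for SP/KLF, 7.18% for YY1, 2.71% for the interferon core, 5.92% for the gamma-activated site and 9.0% for TATAAA, from fewer bases. Promoters of genes with a region in both lists gave 15.3% for ETS, 63.7% for SP/KLF, 15.2% for YY1, 2.79% for the interferon core, 6.25% for the gamma-activated site and 7.1% for TATAAA. The members' own shares in the shorter stretch stayed inside their 95% intervals for all 8 motifs. Those intervals rest on 51 promoters, which are not independent, and the shorter stretch lies within the full one. The members' share fell from 29.4% to 21.6% for ETS and from 17.6% to 11.8% for YY1, still inside the intervals. For TATAAA it was 9.8% in both stretches. Staying inside such intervals therefore says little of how stable the shares are. No paired analysis was possible because each set is deposited as 1 list pooled over its libraries, and for the same reason no library could be left out. A pooled list shows no spread between libraries, and weak signal below the authors' threshold is not seen.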
